A study of Mus musculus with 6 samples.

Results

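The Id genes, Id1, Id2, Id3 and Id4, encode the inhibitors of DNA binding. They were taken from the deposited count table by their symbols, which gave 4 of the 21240 genes counted. RNA-seq was performed on NMuMG cells, an epithelial cell line from the mouse mammary gland, grown for 6 h without serum and insulin before treatment. The treatment was 5 ng/ml TGFβ1, given for 2 h or 12 h, or the vehicle alone, given for 2 h, and no group carries a genetic change named in the labels. Each of the 3 groups had 2 biological replicates, 6 libraries in all. The vehicle libraries were collected at 2 h only, so at 12 h the effect of TGFβ and that of the longer time without serum cannot be told apart.

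Id proteins are helix-loop-helix factors that lack the basic region with which other members of the family contact DNA. They dimerize with the ubiquitous bHLH activators called E proteins and keep them from binding E-boxes alone or together with tissue-restricted bHLH partners. In epithelial cells Id genes are direct targets of BMP signaling through Smad1 and Smad5, and TGFβ is known to repress several of them, with Atf3 described as a partner of Smad3 in the repression of Id1. Id proteins are known to favor proliferation and to oppose differentiation, and their loss has been linked to E protein activity during epithelial-to-mesenchymal transition.

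In the NCBIM37 (mm9) annotation, Id1 (Entrez 15901) lies on the plus strand of chromosome 2 from 152561987 to 152563146. Id2 (Entrez 15902) lies on the minus strand of chromosome 12 from 25778666 to 25780957, Id3 (Entrez 15903) on the plus strand of chromosome 4 from 135699412 to 135701670, and Id4 (Entrez 15904) on the plus strand of chromosome 13 from 48356796 to 48359405. The 4 genes are therefore on different chromosomes. They are short, with 1160, 1270, 1791 and 1660 exon bases for Id1, Id2, Id3 and Id4. Id4 overlaps A330033J07Rik on the opposite strand, and the authors counted reads by strand.

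RefSeq promoter windows (GRCm38.p6) were found for 3 of the 4 members, Id2, Id3 and Id4. The 250 bases before the annotated start were searched on both strands for GGCGCC, a GC-rich element bound by Smads, for CAGAC, the Smad box, whose reverse complement is GTCTG, for TGACGTCA, the ATF/CREB element, and for CANNTG, the E-box. The sequences are shown to let the Smad elements and E-boxes before the starts of these genes be read beside their levels. Id2 and Id4 share GGCGCC, and Id3 carries the Smad box. The Id2 window is given whole and, for Id3 and Id4, only the 30 bases around each match. Capitals mark the matches, GGCGCC and an E-box in Id2, CAGAC or its reverse complement in Id3 and GGCGCC in Id4.
Id2, chr12:25096093-25096342, minus strand: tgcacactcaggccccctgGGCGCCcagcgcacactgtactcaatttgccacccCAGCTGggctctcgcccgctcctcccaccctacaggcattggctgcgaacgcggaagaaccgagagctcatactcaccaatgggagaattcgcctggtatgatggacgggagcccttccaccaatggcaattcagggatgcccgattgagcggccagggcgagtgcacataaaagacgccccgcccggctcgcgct
Id3, chr4:136143643-136143672, plus strand: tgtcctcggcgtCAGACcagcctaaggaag
Id3, chr4:136143742-136143771, plus strand: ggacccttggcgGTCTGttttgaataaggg
Id4, chr13:48260956-48260985, plus strand: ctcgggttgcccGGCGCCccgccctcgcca

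The GGCGCC of Id2 started at -231 and its E-box at -196 from the RefSeq start. The Smad boxes of Id3 started at -167 and -68, and the GGCGCC of Id4 at -148. The Id3 window lies inside an annotated GENCODE transcript that starts further upstream, so both Smad boxes lie after the start of that transcript. Among all 32851 windows of the same length, 9.59% held GGCGCC, 42.2% the Smad box, 66.2% an E-box and 1.55% TGACGTCA, which was in none of the 3 Id windows. GC content was 62.8% for the Id2 window and 75.6% for the Id4 window, against a median of 52.4%. These matches describe letters in the window and are not evidence of binding.

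Library depth ranged from 14705886 to 23786993 counts, and 11080 genes with at least 2 CPM (counts scaled to a common library size with TMM factors) in at least 2 libraries were tested. Id1, Id2 and Id3 passed this filter and Id4 did not. A gene was called at an adjusted p under 0.05 in edgeR's quasi-likelihood test. Against vehicle, the genes called at 2 h were 9.91% of those tested in the upward direction (1098) and 5.25% in the downward direction (582). At 12 h, 21.8% were higher and 21.5% lower (2414 and 2385 genes), and between 2 h and 12 h 15.2% were higher and 18.9% lower. With library totals in place of TMM factors the split became 854 against 974 genes at 2 h and 1831 against 3045 at 12 h, and the median log2FC of all genes moved to -0.12 and -0.11. The shares called also depended on single libraries. At 2 h they went down to 499 higher and 138 lower genes without vehicle replicate 1, and to 547 and 174 without vehicle replicate 2. Without 12 h replicate 1 or 2 they were 660 and 659 higher and 248 and 245 lower, without 2 h replicate 2 they were 944 and 379, and without 2 h replicate 1 they went up to 1250 and 950. At 12 h the counts were 1467 higher and 1506 lower without 12 h replicate 1, 1333 and 1567 without 12 h replicate 2, and 1577 and 1784 without vehicle replicate 1. For 12 h against 2 h they were 652 higher and 1031 lower without 12 h replicate 1, and 640 and 1100 without 12 h replicate 2. Of 7 luminal epithelial marker genes 4 passed 2 CPM, and their summed level was 4960 to 5780 CPM with vehicle, 6440 to 6470 at 2 h and 10300 to 10400 at 12 h. The other 3, Epcam, Cldn3 and Cldn7, had at most 16, 1 and 7 counts in any library. Within the list the keratin genes Krt8 and Krt18 rose at 12 h (log2FC 1.63 and 1.53) and Krt19 fell (-1.95). Basal, fibroblast, endothelial and blood marker lists summed to at most 11.8, 4.40, 1.95 and 6.88 CPM in any library. This keratin rise at 12 h went with the lower Id levels described next, and its part in them was not tested. In these bulk samples, fewer cells with Id mRNA and less Id mRNA per cell cannot be told apart.

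The Id family did not move as 1 group at 2 h. Id2 and Id3 fell within 2 h of TGFβ to 31.72% and 47.82% of the vehicle mean, while Id1 stayed at 106.2%, within the spread between replicates. The difference between the genes was not itself tested. By 12 h all 3 expressed members had fallen, Id2 to 7.913%, Id3 to 24.13% and Id1 to 27.87% of vehicle. Of the 4 members 3 were tested, and 2 of these 3 were called lower at 2 h, where 5.25% of all genes were, and 3 of 3 were called lower at 12 h against vehicle, where 21.5% were, and at 12 h against 2 h, where 18.9% were.

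**Figure D1:**
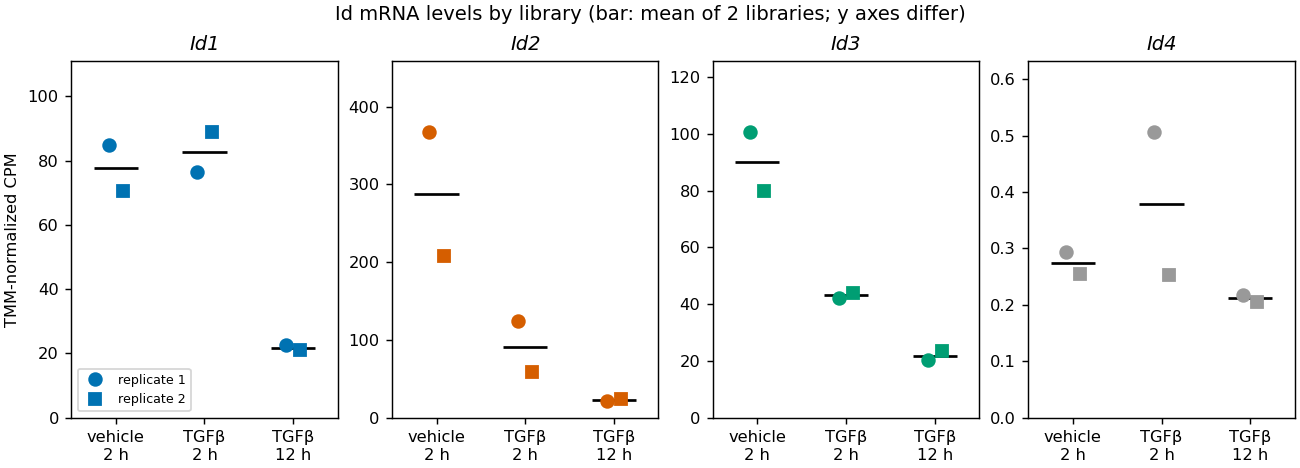
TMM-normalized CPM of each Id gene in the 6 libraries (y axes start at 0 and differ between panels), with circles for replicate 1, squares for replicate 2 and a bar at the mean of 2 libraries. Id1 is at 70.61 CPM or more in each vehicle and 2 h library and at most 22.46 CPM at 12 h, Id2 and Id3 step down at 2 h and again at 12 h, and Id4 stays at or under 0.5056 CPM.

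Id2, a dimerization inhibitor of E proteins, was the most abundant member in vehicle-treated cells and showed the largest fall of the 3 tested. It had 366.8 and 207.4 CPM in the vehicle libraries, 124.1 and 57.97 CPM at 2 h and 21.72 and 23.71 CPM at 12 h. The groups did not overlap, but with vehicle and at 2 h Id2 varied more between replicates than Id1 or Id3, with replicate 1 higher than replicate 2 by 0.82 on the log2 scale in vehicle and by 1.10 at 2 h. At 2 h the log2FC was -1.66 (SE 0.394, adjusted p = 0.0362, 95% interval -2.60 to -0.71), and 0.514% of the genes tested had a more negative value. At 12 h it was -3.66 (SE 0.431, adjusted p = 0.000848), 12.6-fold lower than with vehicle. From 2 h to 12 h Id2 fell further, with a log2FC of -2.003 (SE 0.409, adjusted p = 0.011).

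The size of the early fall of Id2 depended on single libraries. Without vehicle replicate 1 the log2FC at 2 h was -1.19 and the call was lost (adjusted p = 0.163). It was -1.21 without 2 h replicate 2 (adjusted p = 0.044) and -2.33 without 2 h replicate 1 (adjusted p = 0.00426), both still called. Leaving out replicate 1 or 2 of the 12 h group left the value at 2 h at -1.66 with an adjusted p of 0.0985 or 0.0991, and the call between 2 h and 12 h was lost too (log2FC -1.95 and -2.08, adjusted p = 0.0948 and 0.0822). Without 2 h replicate 1 the change from 2 h to 12 h was -1.35, still called (adjusted p = 0.0125). Counts per exon base of Id2 reached 4.91 in vehicle replicate 1, so more than 1 read per position remained in the deposited counts although duplicate removal is stated for them.

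Id3, which shares the partners of Id1 and Id2, followed the same sequence with less spread. Its level was 100.5 and 79.78 CPM in the vehicle libraries, 42.17 and 44.05 CPM at 2 h and 20.16 and 23.35 CPM at 12 h. The 3 groups were again separate, and the 2 h libraries differed by only 0.06 on the log2 scale. The log2FC was -1.06 at 2 h (SE 0.145, adjusted p = 0.00494, 95% interval -1.41 to -0.72) and -2.05 at 12 h (SE 0.15, adjusted p = 0.00015). The further change from 2 h to 12 h was -0.99 (SE 0.148, adjusted p = 0.00355), about the size of the early change. Each call of Id3 held without any 1 library.

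Id1, the member named as a classical BMP target and as a gene repressed by TGFβ in epithelial cells, was late-downregulated. The vehicle libraries had 84.94 and 70.61 CPM of Id1 and the 2 h libraries 76.45 and 88.76 CPM, and these groups overlapped. At 12 h it had 22.46 and 20.88 CPM, below all 4 other libraries. The log2FC at 2 h was 0.09 (SE 0.134, adjusted p = 0.71), with a 95% interval from -0.23 to 0.41 that lies above the intervals of Id2 and Id3. Its sign at 2 h changed without vehicle replicate 2 (-0.04), without 2 h replicate 2 (-0.03) and with library totals (-0.02), none of them called. At 12 h the log2FC was -1.84 against vehicle (SE 0.14, adjusted p = 0.000166), and it was -1.93 against 2 h (SE 0.14, adjusted p = 0.000356).

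Id4, which differs from the others in its tissue range, was barely detected. Reads on Id4 numbered 5 and 4 with vehicle, 10 and 5 at 2 h and 5 and 4 at 12 h, or 0.2052 to 0.5056 CPM. The exact 95% Poisson interval of 10 counts, 4.8 to 18.4, includes each of the other 5 counts except those of 4, whose own interval is 1.09 to 10.2. These intervals cover counting error only. A difference between groups was not detectable at this depth.

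**Figure D2:**
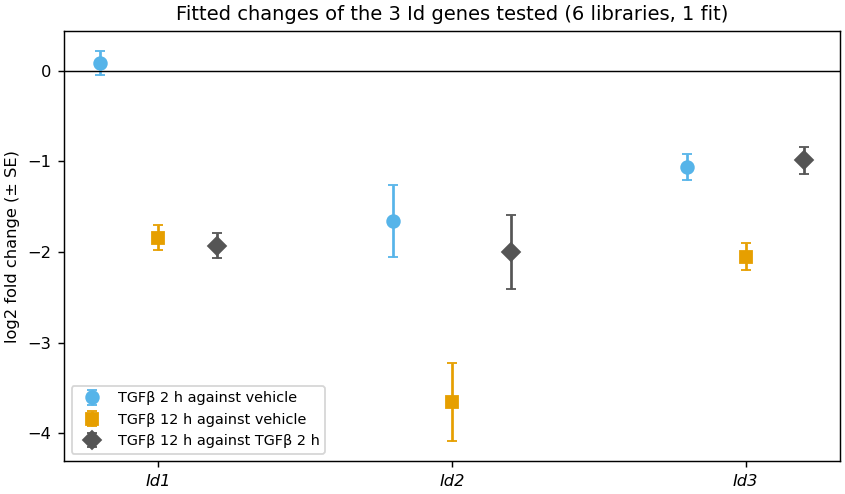
Fitted log2FC with SE of Id1, Id2 and Id3 in the 3 comparisons of 1 edgeR fit of 6 libraries, with circles for 2 h against vehicle, squares for 12 h against vehicle and diamonds for 12 h against 2 h. Only Id1 sits near 0 at 2 h (0.09), and all 3 genes are below -0.9 in the other comparisons.

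The comparisons at 2 h and 12 h share the vehicle libraries, so a high or low vehicle library moves both. Over the 6 libraries, Pearson's r of log2 CPM was 0.97 between Id2 and Id3, 0.83 between Id1 and Id3 and 0.824 between Id1 and Id2. These values describe 3 groups of 2 libraries that share depth and treatment.

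Because counts grow with length, levels were compared between members as CPM per kb of exon. With vehicle Id2 was at 226 ± 88.7 (SD, n = 2), Id1 at 67.0 ± 8.73, Id3 at 50.3 ± 8.20 and Id4 at 0.165 ± 0.0168 CPM per kb. At 2 h Id2 (71.7 ± 36.8) and Id1 (71.2 ± 7.51) could not be ordered within their spread, and Id3 was at 24.1 ± 0.750. At 12 h Id1 was at 18.7 ± 0.969, Id2 at 17.9 ± 1.10 and Id3 at 12.1 ± 1.27 CPM per kb, with Id1 and Id2 again overlapping. The exon length of Id3 includes an upstream first exon, which lowers its value per kb.

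The sum of the 4 members was 418.3 and 268.8 CPM per kb in the vehicle libraries, 187.5 and 146.9 at 2 h and 47.86 and 49.83 at 12 h. The make-up of this sum changed with it. Id2 held 69% and 60.7% of the sum with vehicle, 52.1% and 31.1% at 2 h and 35.7% and 37.5% at 12 h. Id1 held 17.5% and 22.6% with vehicle and 35.2% and 52.1% at 2 h, so that it was the leading member in 2 h replicate 2. At 12 h its share was 40.5% in replicate 1, above that of Id2, and 36.1% in replicate 2, below it. The Id3 to Id1 ratio per kb was 0.767 and 0.732 with vehicle, 0.357 and 0.321 at 2 h and 0.581 and 0.724 at 12 h. It was lowest at 2 h in both replicates, when Id3 had fallen and Id1 had not.

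**Figure D3:**
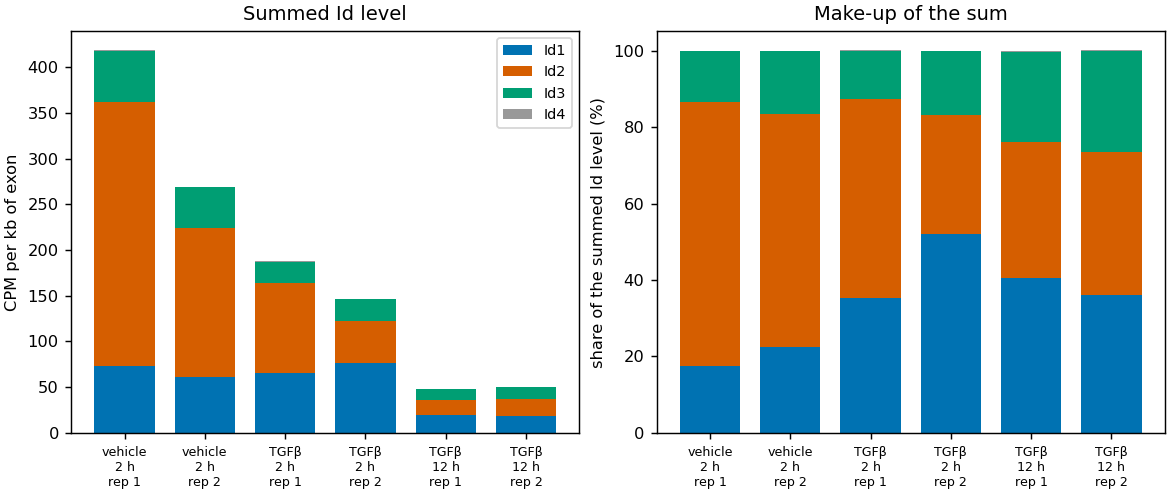
Left, summed CPM per kb of exon of the 4 Id genes in each library, and right, the percent of that sum held by each gene, with stacked bars starting at 0. The sum is 268.8 or more in the vehicle libraries and at most 49.83 at 12 h, and the share of Id2 goes from 60.7% or more with vehicle to 37.5% or less at 12 h.

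The mRNAs of the bHLH factors that Id proteins bind or resemble were examined next. The list held 57 genes, of which 11 passed the filter, and most tissue-restricted activators had few or no counts. At 2 h, 3 of the 11 were called higher and 1 lower, against 9.91% and 5.25% of all genes, and the median log2FC was 0.08 beside -0.01 for all genes. At 12 h, 5 were higher and 3 lower, against 21.8% and 21.5%, with a median of 0.41 beside 0.02 for all genes. Between 2 h and 12 h, 3 were higher and 4 lower, against 15.2% and 18.9%.

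The E proteins, the direct targets of Id inhibition, were all expressed. Tcf3, which encodes E12 and E47, had 68.23 and 68.95 CPM with vehicle, 88.48 and 107.6 at 2 h and 116.4 and 120.1 at 12 h. Its levels were separate in the 3 groups, with a log2FC of 0.52 at 2 h (adjusted p = 0.0338) and 0.79 at 12 h (adjusted p = 0.00249). Tcf12, which encodes HEB, had 135.5 and 126.0 CPM with vehicle and 188.7 and 181.2 CPM at 12 h, a log2FC of 0.50 (adjusted p = 0.00611). Tcf4, which encodes E2-2, passed narrowly at 12 h (log2FC 0.41, adjusted p = 0.0479). At 2 h the log2FC was 0.08 for Tcf12 and 0.03 for Tcf4, neither called, and both were below 0 with library totals. So the E protein transcripts moved upward at 12 h while those of Id1, Id2 and Id3 moved down, although by less than 1 on the log2 scale.

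The call of Tcf3 at 12 h held in all 14 alternatives run, and the others were less stable. The call of Tcf3 at 2 h was lost without either vehicle library, without 2 h replicate 2 and without either 12 h library (log2FC 0.367 to 0.523, adjusted p = 0.0864 to 0.169), with library totals (adjusted p = 0.0809) and with only the compared groups fitted (adjusted p = 0.0871). That of Tcf4 at 12 h was lost without either vehicle or either 12 h library (0.275 to 0.494, adjusted p = 0.0895 to 0.285). It was also lost with limma-voom, DESeq2, DESeq2 size factors, library totals and both other filters (adjusted p = 0.051 to 0.131), 10 of 14 alternatives in all. That of Tcf12 at 12 h was lost without vehicle replicate 2 or 12 h replicate 1 (0.449 and 0.453, adjusted p = 0.0551 to 0.0578).

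Among tissue-restricted activators, 3 of 42 passed the filter. Atoh8, a bHLH factor related to the atonal proteins, kept to 17.00 and 17.45 CPM with vehicle, and to 17.70 and 17.84 at 2 h, then dropped to 0.6966 and 0.8210 CPM at 12 h. This was a log2FC of -4.50 (SE 0.19, adjusted p = 3.43e-05), and its profile was flat and then low, as that of Id1 was. Scx, a tendon-lineage factor, rose at both times, with a log2FC of 2.03 at 2 h (adjusted p = 0.00126) and 1.85 at 12 h (adjusted p = 0.000464).

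The bHLH repressors moved in different directions. Bhlhe40, an E-box repressor also known as Dec1, rose by 1.94 on the log2 scale at 2 h (adjusted p = 0.00063) and by 2.86 at 12 h (adjusted p = 5.15e-05), from 73.18 and 96.01 CPM with vehicle to 606.8 and 623.8 CPM at 12 h. Bhlhe41, its paralog, had a log2FC of -0.33 at 2 h (adjusted p = 0.395) and -1.52 at 12 h (adjusted p = 0.00311). The Notch targets Hes1 and Hey1 differed in timing. Hes1 fell at 2 h (log2FC -1.39, adjusted p = 0.0494) from 66.06 and 59.91 CPM to 13.90 and 34.07 CPM, and stood at 89.73 and 79.79 CPM at 12 h (log2FC 0.43, adjusted p = 0.366). Hey1 had a log2FC of 0.98 at 2 h (adjusted p = 0.074) and -1.90 at 12 h (adjusted p = 0.00478). The early call of Hes1 was lost with only the compared groups fitted (-1.4, adjusted p = 0.116). That call of Hes1 was also lost without either vehicle or either 12 h library (-1.46 to -1.32). Its value at 2 h was -0.905 without 2 h replicate 1 and -2.18 without 2 h replicate 2, and Hes1 was called higher at 12 h without either 2 h library (0.412 to 0.428, adjusted p = 0.0173 to 0.0204).

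**Figure D4:**
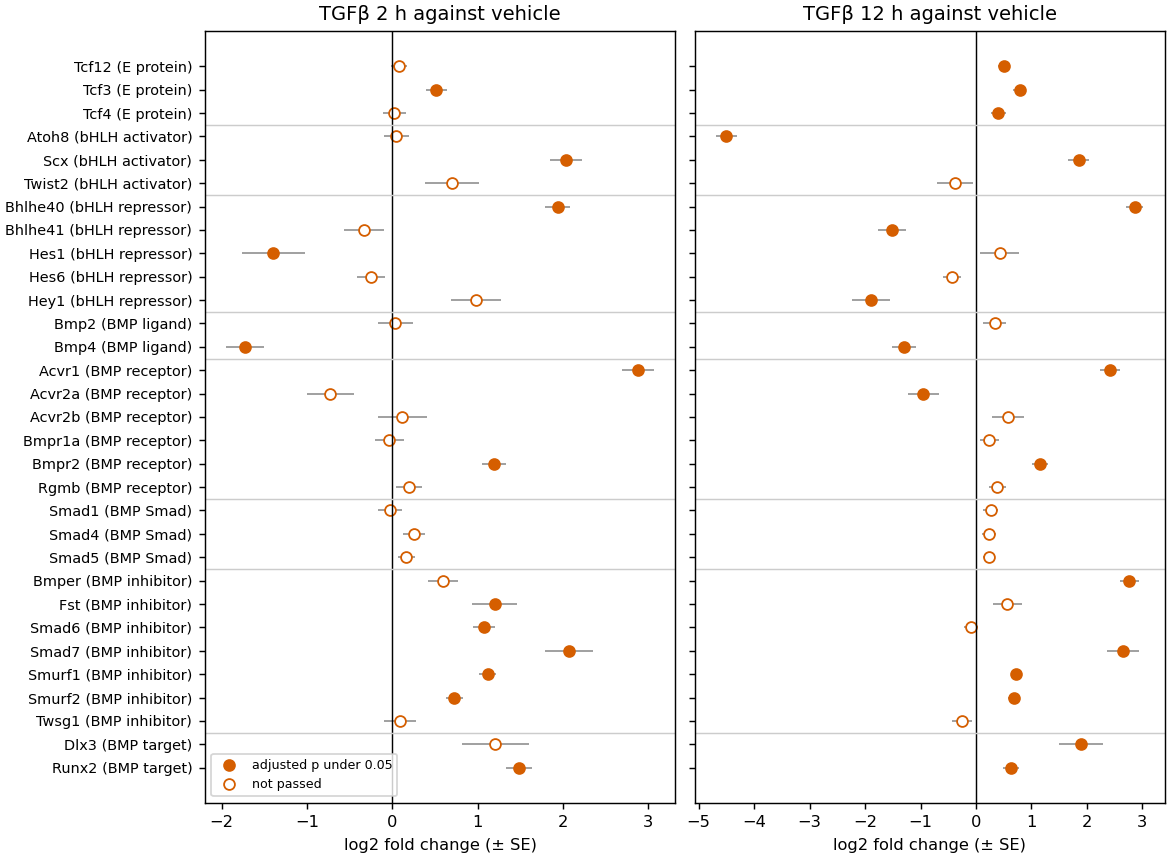
Log2FC with SE of the tested bHLH and BMP branch genes at 2 h (left) and 12 h (right) against vehicle, with filled points for an adjusted p under 0.05 and open points for the rest; the x axes differ. The 3 E proteins are filled at 12 h, the 3 BMP Smads are open in both panels, and Atoh8 lies at -4.50 at 12 h.

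The BMP branch, the main inducer of Id transcription in epithelial cells, was represented by 42 genes, of which 20 were tested. Calls at 2 h were 8 upward and 1 downward, against 9.91% and 5.25% of all genes, and calls at 12 h were 8 upward and 2 downward, against 21.8% and 21.5%, with median log2FC of 0.42 and 0.47 beside -0.01 and 0.02 for all genes. Between 2 h and 12 h, 1 was higher and 3 lower, against 15.2% and 18.9%. Ligands had 2 tested genes of 7. Bmp4 fell early, from 36.41 and 28.33 CPM with vehicle to 11.53 and 8.115 at 2 h and 12.19 and 14.11 CPM at 12 h. Its log2FC was -1.72 at 2 h (SE 0.223, adjusted p = 0.0042) and -1.30 at 12 h (SE 0.219, adjusted p = 0.00368), so that unlike Id2 and Id3 its level was not lower at 12 h than at 2 h.

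Of the receptors, 6 of 11 were tested. Acvr1, the type I receptor ALK2, rose from 31.18 and 22.67 CPM to 214.9 and 180.4 CPM at 2 h and 152.5 and 135.6 CPM at 12 h (log2FC 2.87 and 2.42, adjusted p = 0.000421 and 0.000164). The type II receptor gene Bmpr2 rose too (log2FC 1.19 and 1.15, adjusted p = 0.00314 and 0.00104). Acvr2a, another type II receptor, fell at 12 h (-0.95, adjusted p = 0.0299). This call was lost without either vehicle or either 12 h library (-1.23 to -0.745, adjusted p = 0.0577 to 0.18), and Acvr2a was called at 2 h without 2 h replicate 1 (-1.17, adjusted p = 0.0132).

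Among the Smads that carry the BMP signal to Id promoters, 3 of 4 listed were tested and none was called in any comparison. Of all genes, 9.91% were called higher and 5.25% lower at 2 h, 21.8% and 21.5% at 12 h, and 15.2% and 18.9% for 12 h against 2 h. Smad5 had a log2FC of 0.16 at 2 h (adjusted p = 0.331) and 0.23 at 12 h (adjusted p = 0.113), and Smad4, the shared partner of the BMP and TGFβ branches, 0.25 and 0.24 (adjusted p = 0.25 and 0.179). Smad9 did not pass the filter and was not tested. It had 0.5294 and 0.764 CPM with vehicle, 1.011 and 1.462 at 2 h and 0 in both 12 h libraries.

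The inhibitors of the branch had 7 tested genes of 12, and 5 of them rose at 2 h and 4 at 12 h, where 9.91% and 21.8% of all genes did, with none lower. Smad7, an inhibitory Smad induced by TGFβ, rose by 2.07 at 2 h and 2.65 at 12 h on the log2 scale (adjusted p = 0.00484 and 0.000589). Smurf1, a ubiquitin ligase for BMP Smads, rose by 1.12 and 0.72 (adjusted p = 0.00114 and 0.00165). Bmper, a secreted BMP-binding protein, was called at 12 h with a log2FC of 2.76 (adjusted p = 8.45e-05), and the BMP and activin antagonist Fst at 2 h with 1.20 (adjusted p = 0.0276). With only the compared groups fitted the call of Fst at 2 h was lost (1.19, adjusted p = 0.0719). Without either vehicle or either 12 h library that call of Fst was lost too (1.19 to 1.21). Its value at 2 h was 0.735 without 2 h replicate 1, and without either 2 h library it was called at 12 h (0.545 to 0.561, adjusted p = 0.0148 to 0.0174). Smad6, which inhibits BMP signaling and is itself a BMP target, was chosen after its values were seen. It had 19.47 and 18.08 CPM with vehicle, 40.90 and 38.31 at 2 h and 16.76 and 18.68 at 12 h, a log2FC of 1.08 at 2 h (adjusted p = 0.00304) and -0.08 at 12 h (adjusted p = 0.63).

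Of 8 other BMP Smad targets, 2 were tested. Runx2, an osteogenic transcription factor, rose at 2 h (log2FC 1.48, adjusted p = 0.00179) and less at 12 h (0.63, adjusted p = 0.0148). Dlx3, a homeobox gene, was called at 12 h (1.89, adjusted p = 0.00848) and not at 2 h (1.21, adjusted p = 0.0905). Neither of these 2 genes was called lower than with vehicle, as Id1, Id2 and Id3 were at 12 h. The rest of the 8 did not pass the filter, so these 2 genes do not stand for BMP targets in general. For 12 h against 2 h Runx2 was lower (-0.85, adjusted p = 0.00599). At 12 h Runx2 was not called without vehicle replicate 2 or 12 h replicate 1 (0.513 and 0.44, adjusted p = 0.0895 and 0.112), nor Dlx3 without either 12 h library (1.86 to 1.89, adjusted p = 0.0506 to 0.0532). The vehicle libraries differed for Dlx3, at 3.529 and 8.404 CPM, and its log2FC at 12 h was 2.64 without vehicle replicate 2. Dlx3 was called at 2 h without vehicle replicate 2 or 2 h replicate 1 (1.96 and 1.44). DESeq2 on all 6 libraries also called Dlx3 at 2 h (1.19, adjusted p = 0.0215).

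Direct targets of the TGFβ branch were used to place the Id changes in time. All 5 listed were higher at both times, where 9.91% and 21.8% of all genes were, with medians of 2.41 at 2 h and 2.65 at 12 h. The AP-1 gene Junb rose by 3.51 and 3.98 on the log2 scale (adjusted p = 0.000109 and 3.16e-05). At 2 h, when these genes were already high, Id2 and Id3 were lower and Id1 was not.

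The 3 listed regulators of Id1 had their own time courses. Atf3, a stress-induced bZIP factor, had 9.647 and 12.42 CPM with vehicle, 51.22 and 65.73 at 2 h and 31.61 and 28.68 at 12 h, with a log2FC of 2.41 and 1.45 (adjusted p = 0.000725 and 0.00118). Its transcript was highest at 2 h, when that of Id1 was at the vehicle level. At 12 h, when Id1 was low, Atf3 was still called higher than with vehicle. Smad3, the TGFβ-activated Smad, was higher at 2 h (0.96, adjusted p = 0.00508) and had a log2FC of 0.23 at 12 h (adjusted p = 0.207). Egr1, an immediate-early activator of Id1, had a log2FC of -0.42 at 2 h (adjusted p = 0.358) and 1.68 at 12 h (adjusted p = 0.0027), when Id1 was low. Whether any of these 3 genes took part in the change of Id1 was not tested.

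The 3 nearest genes on each side of each Id gene were compared with it in the NCBIM37 gene order. Of these 24 neighbors 16 were tested, and 2 were lower and 0 higher at 2 h, against 5.25% and 9.91% of all genes. At 12 h, 5 were lower and 1 higher, against 21.5% and 21.8%. Their median log2FC was -0.22 and -0.37, beside -0.01 and 0.02 for all genes. Around Id1, whose log2FC at 12 h was -1.84, H13, an intramembrane protease gene, rose by 0.78 (adjusted p = 0.00193), and Mcts2, which lies within H13 on the same strand, had -0.16 and was not called. The spindle gene Tpx2, 112 kb from Id1, followed the same late course, with a log2FC of 0.01 at 2 h (adjusted p = 0.984) and -4.77 at 12 h (adjusted p = 0.000364). Its sign at 2 h changed with library totals and without vehicle replicate 1 or 2 h replicate 2.

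Around Id2, 2 neighbors were tested. Rrm2, a ribonucleotide reductase subunit gene 388 kb away, had a log2FC of -0.19 at 2 h (adjusted p = 0.771) and fell by 3.10 on the log2 scale at 12 h (adjusted p = 0.00137). Without vehicle replicate 2 its log2FC at 12 h was -2.48. Kidins220, 121 kb away, had -0.11 and -0.31 and was not called.

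Around Id3, E2f2 showed the most similar steps. This gene of a cell cycle transcription factor lies 28.9 kb from Id3 and had a mean of 10.46 CPM with vehicle, 1.993 at 2 h and 0.3973 at 12 h. Its log2FC was -2.39 at 2 h (adjusted p = 0.0042) and -4.69 at 12 h (adjusted p = 0.000196), both more negative than those of Id3. Tcea3, a transcription elongation factor gene 104 kb away, was called at 12 h (-4.71, adjusted p = 0.000133) and not at 2 h (-0.26, adjusted p = 0.521). The other neighbors of Id3, Pithd1, Eloa, Rpl11 and Asap3, were not called at either time. Around Id4, Dek, a chromatin protein gene, was lower at 12 h (-1.23, adjusted p = 0.00143) and Ptpdc1 at 2 h (-0.89, adjusted p = 0.0482). The call of Ptpdc1 was lost in each of the 6 fits without 1 library (-1.01 to -0.793). It was also lost with limma-voom (-0.891, adjusted p = 0.0578) and with only the compared groups fitted (-0.898, adjusted p = 0.0818).

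**Figure D5:**
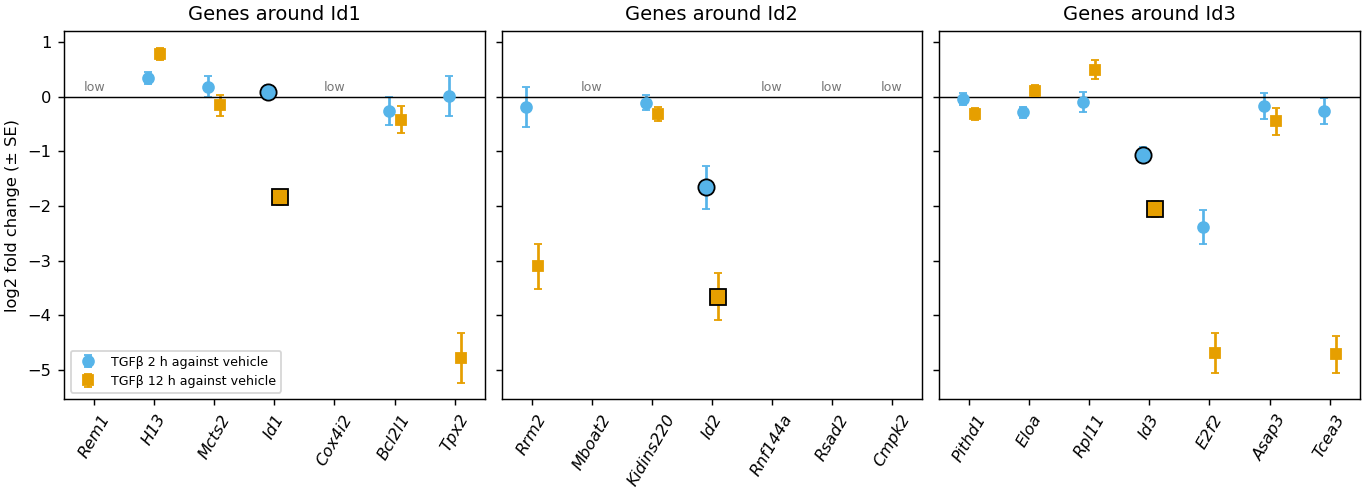
Log2FC with SE of Id1, Id2 and Id3 (large outlined points at the center) and of the 3 genes on either side in gene order, with circles for 2 h and squares for 12 h against vehicle and "low" where a gene did not pass the filter. E2f2, beside Id3, is at -2.39 at 2 h and -4.69 at 12 h, and Tpx2, Rrm2 and Tcea3 are low at 12 h only.

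Genes with the most similar profile were ranked by Pearson's r of log2 CPM over the 6 libraries. For Id1 these were Rtkn2 (r = 0.9989), Slc25a45 (0.9981) and Psca (0.9973). Like Id1 they had small values at 2 h, with log2FC of 0.06, -0.02 and 0.22, and were lower at 12 h, at -2.36, -0.98 and -6.33. Psca had a mean of 4.3 CPM with vehicle and 0.0435 CPM at 12 h, so its -6.33 rests on very few counts. For Id2 they were the death receptor gene Fas (r = 0.9983), Dbt (0.9975) and Slc25a44 (0.9973), with log2FC at 2 h of -0.86, -0.61 and -0.45. For Id3 they were Flcn (r = 0.9992), Tprn (0.9954) and Macrod2 (0.9946), with -0.77, -0.52 and -0.48 at 2 h and -1.52, -1.02 and -1.03 at 12 h. With only 3 groups such values are common, and 728, 391 and 275 genes had an r above 0.95 with Id1, Id2 and Id3.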

How the data were processed

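Stranded total RNA of 6 NMuMG libraries was sequenced as single reads. Filtered reads were aligned by the authors to mm9 with subjunc of Rsubread, duplicate removal with SAMtools 0.1.19 is stated, and unique reads were counted on exons by strand with featureCounts. The deposited values are raw counts per gene, with no normalization.

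Samples were grouped by the labels. The test was the quasi-likelihood test of edgeR 4.0.16 (R 4.3.3) with TMM factors, in 1 fit of the 3 groups without a block. Tested genes reached 2 CPM in at least 2 libraries, and two-sided p-values received Benjamini-Hochberg adjustment per contrast. A pseudocount of 0.25 CPM was added before correlations of log2 levels. Depth was 14705886 to 23786993 counts per library, and replicates differed by a median absolute log2 value of 0.152 with vehicle, 0.22 at 2 h and 0.134 at 12 h. Id4 was planned for the same test but did not pass the filter, and only its values and the log2 ratio of its means are given.

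Gene positions and exon lengths came from GENCODE on NCBIM37, the build of mm9, with 18958 counted genes placed by symbol, 1676 by another symbol and 606 not placed. Promoter sequences came from RefSeq on GRCm38.p6. From each list, the named genes are the up to 4 with the largest absolute log2FC among those called against vehicle, or the 2 most expressed where none was called. To these were added the 3 genes on each side of a member and the 3 with the highest r. The members and lists were chosen with earlier results of these data known. Alternatives were limma-voom (limma 3.58.1), DESeq2 1.42.0, DESeq2 size factors, library totals, 2 other filters, a replicate block, a fit of only the groups compared, and leaving out each library. Scripts were tested on simulated counts. Chromatin data of the study were not used here. A gene that the naming rule selects is not reported here.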

Additional observations from a re-analysis of the deposited data

Results flagged for a closer look

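The change at 12 h differed from that at 2 h for each of the 3 Id genes tested, by the test of 12 h against 2 h in the same edgeR fit (Benjamini-Hochberg adjusted p). Since both are taken against the same vehicle libraries, the difference is the log2FC between the treated groups. It was -1.93 for Id1 (adjusted p = 0.000356), -2.003 for Id2 (adjusted p = 0.011) and -0.99 for Id3 (adjusted p = 0.00355), and both 12 h libraries were below both 2 h libraries for each gene. Groups of 2 libraries are too small for a test of outlying samples.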

How the results depend on the processing

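The falls of Id3 at 2 h and of Id1, Id2 and Id3 at 12 h against vehicle kept their direction and their call under every alternative run. Against 2 h, those of Id1 and Id3 did as well. Leaving out 1 library at a time, the log2FC ranged from -1.22 to -0.89 for Id3 at 2 h and, at 12 h, from -1.97 to -1.70 for Id1, -4.01 to -3.19 for Id2 and -2.21 to -1.88 for Id3. For Id1 at 2 h, which was not called, the range was -0.0402 to 0.226, and the value was -0.0209 with library totals. For Id2 it was -2.33 to -1.19 at 2 h and -2.45 to -1.35 for 12 h against 2 h, and its call at 2 h was also lost with only the compared groups fitted (-1.66, adjusted p = 0.1). The log2 ratio of the means of Id4, 0.465 at 2 h, ranged from -0.123 to 0.882, and from -1.26 to -0.253 for 12 h against 2 h, where it was -0.84. Without 1 library the lone sample of its group is assumed to vary like the others, and fewer degrees of freedom remain.

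The count of bHLH genes called at 2 h, 4, was 2 with only the compared groups fitted and 2 to 4 with a library left out. The count for 12 h against 2 h, 7, was 3 to 9. The BMP count for 12 h against 2 h, 4, was 7 without a filter, 11 with the replicate block and 2 to 8 with a library left out. The cause of these shifts was not tested.

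The replicate numbers are shared by the groups, but the labels name no common culture or day. Differences between replicates correlated across genes by 0.708 (vehicle and 2 h), 0.263 (vehicle and 12 h) and 0.392 (2 h and 12 h). With the replicate block the log2FC was 0.0901, -1.68 and -1.06 for Id1, Id2 and Id3 at 2 h and -1.84, -3.58 and -2.05 at 12 h. No Id call changed. At 2 h the block added calls of Hey1 (adjusted p = 0.0225), Acvr2a (0.0025), Bmper (0.0466), Dlx3 (0.00635) and H13 (0.0265), and at 12 h of Fst (0.0179). All genes called numbered 1813 higher and 1409 lower at 2 h, 3075 and 3052 at 12 h, and 2585 and 2788 for 12 h against 2 h.

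The neighbors that were not called, the genes ranked by r and the marker genes were not run under these alternatives. The remaining named genes were added to the alternatives after the data had been seen. Of their values, 876 stayed on the same side of the threshold, 45 lost a call, 16 gained one and 11 changed sign, none of the last called in the main analysis. With library totals the sign changed at 2 h for Tcf12 (-0.0278), Tcf4 (-0.0872), Atoh8 (-0.0656) and Tpx2 (-0.0946). With a library left out the range spanned 0 for Tcf4 (-0.113 to 0.137), Tpx2 (-0.468 to 0.563) and Rrm2 (-0.623 to 0.433) at 2 h and Ptpdc1 (-0.258 to 0.125) at 12 h. In the main fit, p-values rest on an estimate of the spread shared by all 6 libraries of the 3 groups. With 2 libraries per group, they speak only for these samples.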
